A study of Saccharomyces cerevisiae with 24 samples.

Results

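The transcriptomes of the yeast strains that lack the Snf1 kinase were compared with WT in cultures grown for 48 hr. The comparison used 9 of the 24 RNA-seq libraries of the series, namely the 3 WT libraries of 48 hr and the 6 libraries of 48 hr from both mutant strains, which were pooled as 1 group of 6. Pooling the mutant strains made the result the same whichever mutant strain a library of the 6 came from. WT was JS1256. The *snf1*∆ strain JS1394 carried *snf1*∆::*kanMX4* in place of the gene, and JS1416 was *snf1*∆ *cyc8-G337S*, a single adapted isolate that arose from JS1394. All of them were *MAT*a haploids with *his3*∆1, *leu2*∆0, *met15*∆0 and *ura3*∆0, and the 6 mutant libraries shared the deletion of *SNF1*, while the labels give the change in *CYC8* to the 3 of JS1416. The other libraries of the series came from log phase and from 24 hr and were used here only to ask whether the difference from WT changed with time. The cultures were grown in triplicate with glucose at 30°C, in a medium that the sample records call YPD and the methods call SC.

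Snf1 is the catalytic subunit of the yeast AMP-activated protein kinase. It becomes active when glucose runs out, and it turns on genes that let cells live on ethanol, acetate, lactate and glycerol, partly by phosphorylating the repressor Mig1, which acts with Cyc8 and Tup1, and partly through the activators Cat8, Sip4 and Adr1. After fermentable sugar is used up, yeast cells normally switch to respiration, make sugar by gluconeogenesis, store glycogen and trehalose, and express stress and stationary phase genes.

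The 9 libraries held between 747098 and 29070805 counts, and both of these extremes were libraries of JS1416. Levels are given below as CPM, the count of a gene relative to the size of its library, after scaling by trimmed mean of M-values (TMM). *SNF1* (YDR477W, chrIV:1412373-1414274) gave 44.5, 54.4 and 45.0 CPM in the WT libraries and between 0.947 and 3.89 CPM in the 6 mutant libraries (log2 fold change -4.49 ± 0.36), so that all 6 matched the genotype they share. The mutant libraries did not separate by the strain of their label. The libraries labelled *snf1*∆ replicates 1 and 2 and JS1416 replicate 1 resembled each other (Pearson r of log2 CPM over 6409 genes from 0.976 to 0.986), and the library labelled *snf1*∆ replicate 3 lay with JS1416 replicates 2 and 3 (0.945 to 0.986), whereas r across these sets was 0.857 to 0.914. An exchange of labels between *snf1*∆ replicate 3 and JS1416 replicate 1 is therefore possible and was not tested, so values by strain are given only as labelled. The 10 most abundant genes of each library took 10.3% to 12.9% of the counts in WT and 19.7% to 31.8% in the mutants. In bulk RNA, fewer cells that express a gene and less RNA of it per cell cannot be told apart.

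At 48 hr 1384 of the 6409 genes tested differed between the 6 mutant and the 3 WT libraries by edgeR's quasi-likelihood test at an adjusted p under 0.05, which is 21.6% of the genes. Of these, 700 (10.9% of those tested) were higher and 684 (10.7%) were lower in the mutants, and 412 of the higher and 317 of the lower genes changed by at least 2-fold. The groups did not overlap, so that each of the 6 mutant libraries lay above each WT library for 12.9% of the genes tested and below for 14.4%. Over all genes the median log2 fold change was 0.01. When libraries were scaled by their total count alone this median moved to -0.43 and the calls split into 311 higher and 1970 lower, so directions below are relative to the middle of the transcriptome. The calls also rested on each WT library. Leaving out WT replicate 3 left 591 calls, leaving out WT replicate 1 left 705 and leaving out WT replicate 2 left 888. Leaving out both the library labelled *snf1*∆ replicate 3 and that labelled JS1416 replicate 1 left 896. With the strains taken as labelled, 1274 genes were called for *snf1*∆ alone and 559 for JS1416 alone. Among genes tied to cell type, the 7 *MAT*a-specific genes had a median log2 fold change of 0.31, and 2 of 4 *MAT*alpha-specific genes and 1 of 7 meiotic genes were called lower. Of the *MAT*alpha-specific genes called, *MF(ALPHA)1* gave at most 3.09 CPM in any library. A fold change between the groups does not show the mating type of either.

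**Figure D1:**
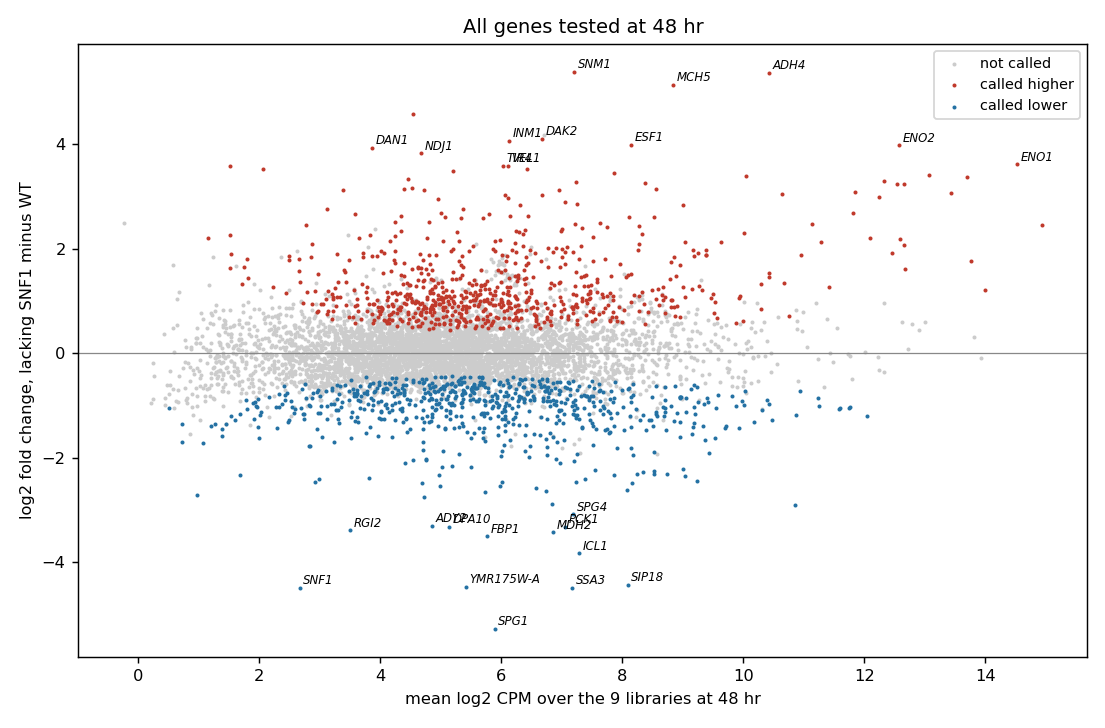
Log2 fold change at 48 hr of the 6 mutant libraries against the 3 WT libraries (vertical axis) against the mean log2 CPM over the 9 libraries (horizontal axis), 1 point per gene tested, with called genes in colour. The 700 genes called higher and the 684 called lower spread over the whole range of levels, and the largest fold changes reached 5.38.

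The genes of the glyoxylate cycle and gluconeogenesis were far below WT. Of the 10 genes in this list, 7 were called lower, with a median log2 fold change of -2.77. *ICL1* (YER065C), which encodes isocitrate lyase, the entry to the glyoxylate cycle, gave 908, 1210 and 991 CPM in WT and 26.7 to 129 CPM in the 6 mutant libraries, with a median of 62.0 CPM. Its log2 fold change was -3.83 ± 0.48 (SE, 6 against 3 libraries, adjusted p = 0.000565). *MLS1*, for malate synthase, gave 434, 517 and 468 CPM in WT and 30.0 to 121 CPM in the mutants (log2 fold change -2.88 ± 0.41, adjusted p = 0.00124). No mutant library reached a WT library for either gene.

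Transcripts of the gluconeogenic enzymes fell with those of the glyoxylate enzymes. *FBP1*, which encodes fructose-1,6-bisphosphatase, gave 267, 315 and 338 CPM in WT against 9.45 to 45.1 CPM in the mutants (-3.51 ± 0.45, adjusted p = 0.000639). *PCK1*, for phosphoenolpyruvate carboxykinase, gave 602, 696 and 753 CPM against 28.6 to 127 CPM (-3.32 ± 0.45, adjusted p = 0.000996). *MDH2*, for the cytosolic malate dehydrogenase, gave 562, 698 and 537 CPM against 31.5 to 79.8 CPM (-3.43 ± 0.34, adjusted p = 0.000197). For these enzyme genes the groups were far apart, and the library labelled *snf1*∆ replicate 3 and JS1416 replicates 2 and 3 held the 3 highest mutant levels. *SFC1*, which encodes the mitochondrial succinate-fumarate carrier, also fell (-2.66 ± 0.53, adjusted p = 0.00592). Of the 3 members that were not called, *CIT2* overlapped between the groups, whereas *ACO1* (log2 fold change -1.09, adjusted p = 0.121) and *IDP2* (-1.77, adjusted p = 0.0911) were below WT in every mutant library.

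**Figure D2:**
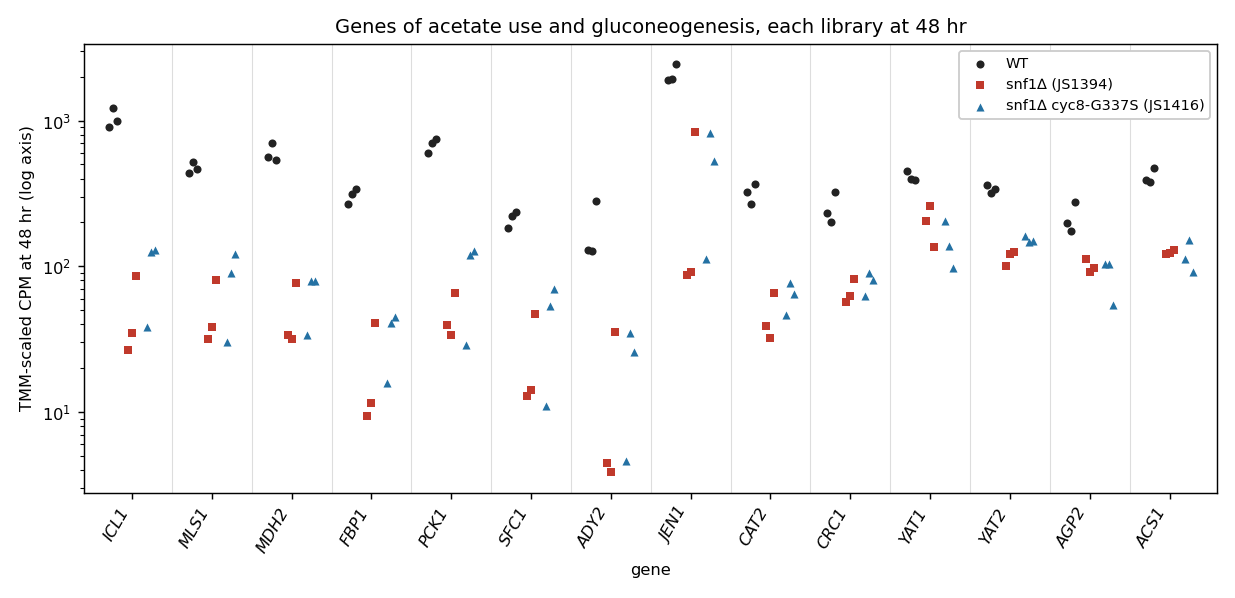
TMM-scaled CPM at 48 hr on a log axis for genes of growth on ethanol, acetate and lactate, 1 point per library, with WT and the labelled mutant strains marked separately. For *ICL1* the 3 WT libraries sit between 908 and 1210 CPM and the 6 mutant libraries between 26.7 and 129 CPM.

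Of the 4 transporters of acetate, lactate and ammonium listed, 3 were called lower, with a median log2 fold change of -2.48. *ADY2*, the acetate permease gene, gave 130, 128 and 280 CPM in WT and 3.85 to 35.2 CPM in the mutants (-3.30 ± 0.66, adjusted p = 0.00622). *ATO2* of the same family gave 806 to 1300 CPM in WT and 62.3 to 308 CPM in the mutants (-2.62 ± 0.52, adjusted p = 0.00595). *JEN1*, for the lactate and pyruvate permease, gave 1910, 1940 and 2430 CPM in WT and 86.7 to 831 CPM in the mutants (-2.35 ± 0.71, adjusted p = 0.0375). The mutant levels of these genes were widely spread, and the same 3 libraries as above were the highest.

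The carnitine shuttle, which moves acetyl units between compartments, fell as a whole, with 5 of 5 genes called lower and a median log2 fold change of -1.34. *CAT2*, the carnitine acetyltransferase of mitochondria and peroxisomes, gave 324, 269 and 369 CPM in WT and 32.1 to 76.3 CPM in the mutants (-2.57 ± 0.26, adjusted p = 0.000197). *CRC1*, for the mitochondrial carnitine carrier, gave 232, 201 and 324 CPM in WT and 57.2 to 89.7 CPM in the mutants (-1.80 ± 0.21, adjusted p = 0.000369). *YAT2*, *YAT1* and *AGP2* changed by -1.34, -1.25 and -1.20. These 5 genes were all called in each of the fits that left out 1 of the 9 libraries.

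Among the 10 genes of ethanol and acetaldehyde oxidation 5 were called lower and 2 higher. *ACS1*, which encodes the acetyl-CoA synthetase used without glucose, gave 391, 377 and 472 CPM in WT and 91.4 to 152 CPM in the mutants (-1.76 ± 0.18, adjusted p = 0.000217). *ALD6*, for cytosolic acetaldehyde dehydrogenase, gave 958 to 1320 CPM in WT and 64.2 to 400 CPM in the mutants (-2.28 ± 0.55, adjusted p = 0.0141). *ADH2*, the alcohol dehydrogenase gene of ethanol use, was an exception and was not called (0.84 ± 0.49, adjusted p = 0.244). It gave 430, 483 and 462 CPM in WT and 1300, 1380 and 1090 CPM in *snf1*∆ replicates 1 and 2 and JS1416 replicate 1. The other mutant libraries, *snf1*∆ replicate 3 and JS1416 replicates 2 and 3, gave 441, 417 and 292 CPM. The pooled fold change of *ADH2* thus describes neither set. The alcohol dehydrogenase gene *ADH5* rose (1.51 ± 0.36, adjusted p = 0.0131), as did *ALD5* (0.77).

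The activators of these pathways differed among themselves. *CAT8*, for the zinc cluster activator of gluconeogenic genes, gave 223, 191 and 278 CPM in WT and 16.2 to 65.6 CPM in the mutants (-2.54 ± 0.46, adjusted p = 0.00403). *SIP4*, whose product binds the same element, fell by less (-0.87 ± 0.17, adjusted p = 0.00569). *ADR1*, for the activator of *ADH2* and peroxisomal genes, gave 396 to 510 CPM in WT and 26.3 to 300 CPM in the mutants, below WT in all 6 libraries but not called (-1.63 ± 0.70, adjusted p = 0.119). Of the Hap complex that activates respiratory genes, *HAP5* was higher (0.93), and *HAP4*, its regulatory subunit gene, was not called (-0.26, adjusted p = 0.547). *OAF1*, for an activator of peroxisomal genes, was higher (1.0).

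Promoter windows of 7 genes of the glyoxylate cycle, gluconeogenesis and acetyl-CoA metabolism that fell are shown to place the element that Cat8 and Sip4 bind, the carbon source-responsive element, which was searched as CC and CCG with any 6 bases between them on both strands of the 500 bases before each start codon. Sequences are from the RefSeq R64 assembly, written 5′ to 3′ on the strand of the gene with the match in capitals.
*ICL1*, chrV:287287-287327, minus strand: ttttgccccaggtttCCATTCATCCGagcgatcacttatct
*PCK1*, chrXI:630656-630696, plus strand: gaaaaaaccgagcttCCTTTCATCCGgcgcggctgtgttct
*MDH2*, chrXV:83272-83312, minus strand: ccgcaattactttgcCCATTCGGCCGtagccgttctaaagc
*ACS1*, chrI:45368-45408, minus strand: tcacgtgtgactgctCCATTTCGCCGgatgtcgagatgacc
*CRC1*, chrXV:514511-514551, minus strand: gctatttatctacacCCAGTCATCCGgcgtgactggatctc
*FBP1*, chrXII:875207-875247, minus strand, match on the opposite strand: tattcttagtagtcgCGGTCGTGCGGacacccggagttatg
*CAT2*, chrXIII:192492-192532, plus strand, match on the opposite strand: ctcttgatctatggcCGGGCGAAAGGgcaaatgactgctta
These matches ended 387, 470, 366, 360 and 247 bases before the start codon in *ICL1*, *PCK1*, *MDH2*, *ACS1* and *CRC1*, and some of these promoters held further matches. A match was found in 9 of the 10 promoters of the glyoxylate and gluconeogenesis list (90.0%) and in 5 of 5 of the carnitine list. Cat8 is known as an activator of genes of the former list, so that share is not independent of the element. It was also found in 46 of 137 promoters of cytosolic ribosomal proteins (33.6%) and in 50.0% of those of histones, lists with few calls. It was found in 28.3% of the 637 promoters of genes called lower, in 18.7% of the 648 of genes called higher and in 20.8% of the 5831 of all genes tested. Matches of different motifs can overlap and were counted separately, and a match of letters is not a measured binding site.

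Many transcripts of the tricarboxylic acid cycle, the respiratory chain and the ATP synthase were lower. In the tricarboxylic acid cycle 9 of 16 genes were called lower, with a median log2 fold change of -1.03. *CIT3*, for a mitochondrial citrate and methylcitrate synthase, gave 79.2 to 104 CPM in WT and 5.00 to 27.4 CPM in the mutants (-2.47 ± 0.37, adjusted p = 0.00155). *SDH2*, for the iron-sulfur subunit of succinate dehydrogenase, gave 559 to 845 CPM in WT and 146 to 273 CPM in the mutants (-1.82 ± 0.26, adjusted p = 0.00124). *SDH1*, *SDH3* and *SDH4* of the same complex were called lower too, by -1.16, -1.41 and -0.85.

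In the respiratory chain 16 of 23 genes were called lower and 1 higher, with a median of -1.03. *COX5A* and *COX5B* encode alternative forms of the same cytochrome c oxidase subunit, the former used in air and the latter when oxygen is scarce, and they moved in opposite directions. *COX5A* gave 1020, 860 and 1250 CPM in WT and 297 to 413 CPM in the mutants (-1.60 ± 0.19, adjusted p = 0.000427). *COX5B* gave 95.8, 72.5 and 125 CPM in WT and 129 to 236 CPM in the mutants (0.88 ± 0.25, adjusted p = 0.0276). The ATP synthase list had 12 of 17 genes called lower, among them *ATP16*, for the delta subunit (-1.40 ± 0.20), and *STF1*, for a regulator of the enzyme (-1.40 ± 0.25). Its count was 8 without WT replicate 3, where the median was -0.88. Of the mitochondrial ribosomal proteins 8 of 75 were called lower, the same share of 10.7% as of all genes.

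The peroxisomal enzymes of fatty acid oxidation included 8 of 17 genes called lower. *POT1*, for 3-ketoacyl-CoA thiolase, gave 63.2 to 116 CPM in WT and 6.42 to 34.8 CPM in the mutants (-2.02 ± 0.52, adjusted p = 0.0192). *SPS19*, for a 2,4-dienoyl-CoA reductase, fell by 1.43 on the log2 scale. Without WT replicate 3 the list had 3 calls.

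The genes of glycolysis and fermentation showed the reverse. Of 23 genes 17 were called higher and 3 lower, with a median log2 fold change of 2.12, and this list took 6.41% to 7.50% of the counts of the WT libraries and 17.3% to 34.3% of those of the mutants. *ENO1*, for enolase, gave 4910, 5300 and 4200 CPM in WT and 28200 to 89200 CPM in the mutants (3.62 ± 0.51, adjusted p = 0.00122). *ENO2* gave 1130, 1200 and 908 CPM in WT and 7010 to 27700 CPM in the mutants (3.98 ± 0.59, adjusted p = 0.00151). The enolase genes are similar in sequence, with 10.7% of the 75-base windows of each found elsewhere in the genome, so that reads of these stretches may be split between them.

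Genes of other steps of the pathway were also higher than WT. *PGK1*, for phosphoglycerate kinase, gave 2480 to 3310 CPM in WT and 15300 to 46600 CPM in the mutants (3.37 ± 0.49, adjusted p = 0.00125). *CDC19*, for pyruvate kinase, gave 1120 to 1920 CPM in WT and 8030 to 21500 CPM in the mutants (3.23 ± 0.45, adjusted p = 0.00104). *TDH1*, for glyceraldehyde-3-phosphate dehydrogenase, gave 10300, 9090 and 13400 CPM in WT and 30400 to 93400 CPM in the mutants (2.45 ± 0.49, adjusted p = 0.00617). In each of these genes *snf1*∆ replicates 1 and 2 and JS1416 replicate 1 were the 3 highest libraries and the other 3 mutant libraries still lay above all WT libraries. *FBA1*, *GPM1*, *PDC1* and *ADH1* were called higher by 3.08, 2.99, 2.19 and 1.91.

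The most extreme gene of this list was *ADH4*, which encodes an alcohol dehydrogenase that is also regulated by zinc. It gave 166, 122 and 238 CPM in WT, 13100, 14000 and 13000 CPM in *snf1*∆ replicates 1 and 2 and JS1416 replicate 1, and 1090, 1280 and 1040 CPM in the other 3 mutant libraries (5.37 ± 1.18, adjusted p = 0.00937). The mutant libraries thus fell at 2 levels, both above WT, and the call was narrowly lost without WT replicate 3 (adjusted p = 0.0501). The 3 genes called lower were *PDC6* (-1.27 ± 0.25), for a minor pyruvate decarboxylase, *GLK1* (-1.20 ± 0.24), for glucokinase, and *ADH3* (-0.65), for the mitochondrial alcohol dehydrogenase. *GLK1* gave 6860, 5580 and 10000 CPM in WT and 2570 to 4070 CPM in the mutants, whereas *HXK2*, for the hexokinase used with plentiful glucose, gave 143 to 317 CPM in WT and 442 to 1140 CPM in the mutants and was higher (1.68 ± 0.42, adjusted p = 0.0164). Without the libraries labelled *snf1*∆ replicate 3 and JS1416 replicate 1, 17 genes of the list were again called higher.

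**Figure D3:**
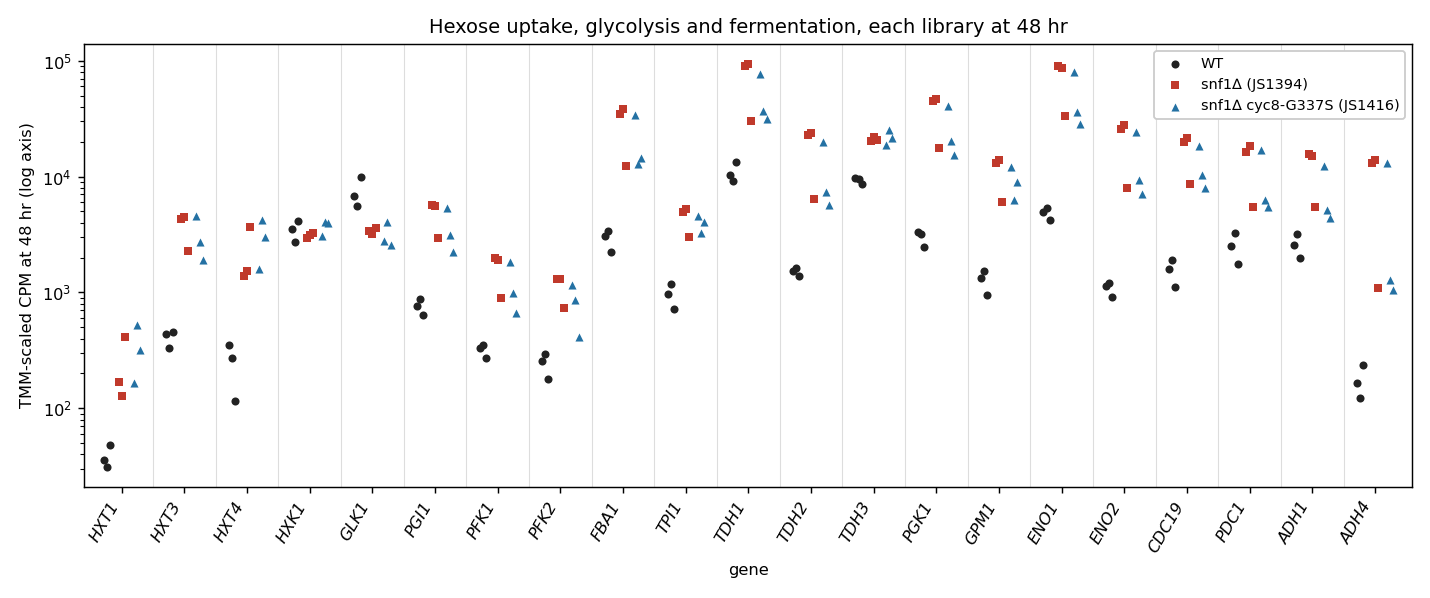
TMM-scaled CPM at 48 hr on a log axis for genes of hexose uptake, glycolysis and fermentation, 1 point per library, with WT and the labelled mutant strains marked separately. For *ENO1* the WT libraries lie between 4200 and 5300 CPM and the mutant libraries between 28200 and 89200 CPM.

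Of 17 hexose transporters and sensors, 4 were called higher and 4 lower. *HXT4*, for a transporter induced by low glucose, gave 351, 271 and 115 CPM in WT and 1390 to 4190 CPM in the mutants (3.38 ± 0.53, adjusted p = 0.002). *HXT3*, for one of low affinity, gave 329 to 455 CPM in WT and 1890 to 4610 CPM in the mutants (3.05 ± 0.37, adjusted p = 0.000521). *HXT1* rose by 2.90 and the sensor gene *RGT2* by 0.64. Among the genes called lower were the minor transporter *HXT13* (-1.28) and the sensor gene *SNF3* (-0.66). *HXT6* and *HXT7* are nearly identical, with 95.0% of their windows shared, and were not called.

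*SUC2*, which encodes invertase and is the classical gene repressed by glucose through Mig1, was not called in the pooled comparison (1.40 ± 1.13, adjusted p = 0.398). It gave 625, 513 and 718 CPM in WT, 119, 134 and 147 CPM in *snf1*∆ replicates 1 and 2 and JS1416 replicate 1, and 3200, 4040 and 2180 CPM in *snf1*∆ replicate 3 and JS1416 replicates 2 and 3. These 6 mutant libraries thus lay on both sides of WT. *FLO11*, for a cell surface flocculin, behaved in the same manner, with 37.1 to 46.8 CPM in WT, 13.5 to 27.0 CPM in the first 3 of these libraries and 832 to 2320 CPM in the others (4.18 ± 1.69, adjusted p = 0.101). *HXT2*, for another hexose transporter, gave 24.9 to 54.3 CPM in WT, 6.67 to 10.3 CPM in the first 3 and 309 to 382 CPM in the others (2.08 ± 1.28, adjusted p = 0.266). A pooled fold change describes neither set of libraries for these genes. Of 15 genes for sucrose, maltose and galactose use, 2 were called higher and 3 lower, with *GAL7* (3.13 ± 0.35) the highest and *GAL2* (-1.69 ± 0.24) the lowest of them.

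Genes of glycerol metabolism moved in both directions. *GUT1*, for glycerol kinase (423 to 577 CPM in WT, 44.9 to 138 CPM in the mutants, -2.46 ± 0.32), and *GUT2*, for the mitochondrial glycerol-3-phosphate dehydrogenase (-2.40 ± 0.64), fell. The genes for the glycerol-3-phosphatases, *GPP2* (3.26 ± 0.62) and *GPP1* (3.14 ± 0.67), and *GPD2* (1.92 ± 0.48), for the dehydrogenase before them, rose. *GPD1* was close to WT (0.07 ± 0.30, adjusted p = 0.897). *DAK2*, for a dihydroxyacetone kinase, gave 17.2, 11.8 and 17.3 CPM in WT and 211 to 332 CPM in the mutants (4.11 ± 0.27, adjusted p = 5.46e-05), with little spread among the 6. *DAK1* was also called higher (0.94 ± 0.17, adjusted p = 0.00379). In all, 5 of 12 genes were called higher and 2 lower.

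Of the 10 genes of the Snf1 complex and its regulators, 2 were called higher and 1 lower, and 21.6% of all genes were called. *STD1*, for a protein that acts in glucose sensing and binds Snf1, gave 5.56 to 6.46 CPM in WT and 12.4 to 94.5 CPM in the mutants (3.15 ± 0.70, adjusted p = 0.00981). *TOS3*, for one of the kinases that activate Snf1, gave 25.0 to 47.5 CPM in WT and 121 to 143 CPM in the mutants (1.85 ± 0.22, adjusted p = 0.000419). *SIP2*, for one of the beta subunits, gave 95.4 to 131 CPM in WT and 38.9 to 53.9 CPM in the mutants (-1.20 ± 0.17, adjusted p = 0.00104). *SNF4*, for the gamma subunit, was close to WT (0.13 ± 0.13, adjusted p = 0.505). Of the 10 repressors and corepressors, *RGT1* was called lower (-0.63) and *HXK2* higher, while *MIG1* (0.31), *CYC8* (0.16) and *TUP1* (-0.16) were not called.

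Stationary phase genes included the largest fall among the genes named. Of 23 genes of stationary phase and desiccation 9 were called lower and 4 higher, with a median log2 fold change of -0.74. *SPG1*, a gene needed for survival in stationary phase at high temperature, gave 529, 477 and 1200 CPM in WT and 7.71 to 30.9 CPM in the mutants (-5.28 ± 0.44, adjusted p = 8.65e-05). *SIP18*, for a hydrophilin of desiccation tolerance, gave 1870, 1910 and 3100 CPM in WT and 46.2 to 179 CPM in the mutants (-4.43 ± 0.41, adjusted p = 0.000126). The uncharacterised reading frame YMR175W-A next to it gave 284 to 505 CPM in WT and 6.11 to 30.9 CPM in the mutants (-4.47 ± 0.39, adjusted p = 9.11e-05).

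*SPG4*, another gene of survival in stationary phase, gave 574 to 1240 CPM in WT and 14.1 to 206 CPM in the mutants (-3.08 ± 0.74, adjusted p = 0.0136), a call that was lost without WT replicate 3 (adjusted p = 0.0723). *HSP12*, for a small membrane-protecting heat shock protein, gave 8840, 7080 and 13400 CPM in WT and 243 to 3070 CPM in the mutants (-2.91 ± 0.73, adjusted p = 0.0166). *YGP1*, for a secreted glycoprotein made when cells run short of nutrients, was the member with the largest rise, from 2460 to 2770 CPM in WT to 4890 to 15800 CPM in the mutants (2.07 ± 0.40, adjusted p = 0.00528). The number of members called lower was 3 without WT replicate 3 and 6 without the libraries labelled *snf1*∆ replicate 3 and JS1416 replicate 1.

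Chaperones had no common direction at 48 hr. Of 22 genes 2 were called higher and 4 lower and the median log2 fold change was 0.00, which became -0.42 when scaled by library size alone. *SSA3*, for a stress-induced Hsp70, gave 1190, 1040 and 1350 CPM in WT and 31.7 to 76.0 CPM in the mutants (-4.48 ± 0.31, adjusted p = 5.46e-05). The other Hsp70 genes *SSA1* (0.11), *SSA2* (0.48) and *SSA4* (0.65) were not called. *HSP30*, for a plasma membrane heat shock protein, gave 4880 to 7460 CPM in WT and 17800 to 23100 CPM in the mutants (1.77 ± 0.24, adjusted p = 0.00104). *HSP104* (-0.16) and *HSP26* (-0.08), whose products keep proteins from aggregating, were close to WT.

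Among 16 targets of the general stress activators Msn2 and Msn4, 6 were called lower and 1 higher. *DDR2*, a gene induced by many stresses, gave 1660 to 1870 CPM in WT and 283 to 667 CPM in the mutants (-1.91 ± 0.28, adjusted p = 0.00139), and *HSP12* fell as given above. The stress response element of Msn2 and Msn4, AGGGG on either strand, occurred in 16 of 16 of these promoters. It occurred in 43.5% of those of genes called lower and in 34.3% of those of all genes tested. The list was made of targets of these activators, so its share is not independent of the element. A window each of *HSP12* and *SIP18*, which fell, is given with this element in capitals.
*HSP12*, chrVI:106827-106861, plus strand: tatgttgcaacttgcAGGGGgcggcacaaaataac
*SIP18*, chrXIII:610632-610666, plus strand, match on the opposite strand: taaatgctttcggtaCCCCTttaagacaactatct
Of the regulators of stress and the post-diauxic phase only *XBP1*, for a stress-induced repressor, was called among 13 genes (219 to 233 CPM in WT, 35.3 to 137 CPM in the mutants, -1.57 ± 0.38, adjusted p = 0.0138). In oxidative defence 8 of 22 genes were called lower, with *TSA2*, a peroxiredoxin gene (-1.69 ± 0.38), and *SOD2*, for the mitochondrial superoxide dismutase (-1.47 ± 0.28) at the top of the list.

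In storage carbohydrate metabolism, glycogen and trehalose genes were examined. Most glycogen genes lay below WT in every mutant library, but few were called. For glycogen 3 of 12 genes were called lower and 1 higher. *GLG2*, for a glycogenin that primes synthesis, gave 65.4 to 75.8 CPM in WT and 5.00 to 32.1 CPM in the mutants (-2.04 ± 0.45, adjusted p = 0.00988), and *GPH1*, for glycogen phosphorylase, was higher (0.62). *GSY1* (-1.59, adjusted p = 0.0803), *GDB1* (-1.21, adjusted p = 0.146), *GLG1* (-0.96), *PIG1* (-0.96) and *GAC1* (-0.38) were not called but were below WT in every mutant library. The groups overlapped for *PIG2* (-0.40), *GSY2* (-0.14) and *GIP2* (0.04). The number called lower was between 0 and 6 over the fits that left out 1 library. For trehalose 1 of 9 genes was called in each direction, near the share over all genes (10.9% higher and 10.7% lower), *TPS3* (0.56) and *PGM2* (-0.62), and the median of 0.12 turned to -0.31 with library size alone. *TPS1*, for trehalose-6-phosphate synthase, was not called (-0.57, adjusted p = 0.0774).

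Many genes of amino acid biosynthesis were higher. Of 55 genes of amino acid synthesis and Gcn4 control, 32 were called higher and 1 lower, with a median log2 fold change of 1.0. *HOM3*, for aspartate kinase, gave 41.6, 42.5 and 32.0 CPM in WT and 120 to 643 CPM in the mutants (3.27 ± 0.62, adjusted p = 0.00489). *ILV3*, for dihydroxyacid dehydratase of the branched-chain pathway, gave 109 to 125 CPM in WT and 258 to 817 CPM in the mutants (2.29 ± 0.38, adjusted p = 0.00261). *ARG3*, for ornithine carbamoyltransferase, gave 9.27 to 11.8 CPM in WT and 30.8 to 53.5 CPM in the mutants (1.90 ± 0.23, adjusted p = 0.000496). The exception was *BAT2*, for the cytosolic branched-chain aminotransferase, which was called lower (-0.80) although its groups overlapped. The number called higher was 16 without WT replicate 3, 25 without the libraries labelled *snf1*∆ replicate 3 and JS1416 replicate 1, and 18 when scaled by library size alone.

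The Gcn4 element TGACTCA was present in 29 of these 55 promoters (52.7%), a list that was drawn up for Gcn4 control and is not independent of it. It was present in 8.49% of the promoters of genes called higher, in 3.77% of those called lower and in 4.03% of those of all genes tested. It is shown in capitals for 5 genes that rose.
*HOM3*, chrV:258220-258256, minus strand: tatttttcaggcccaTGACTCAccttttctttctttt
*HOM2*, chrIV:770158-770194, plus strand: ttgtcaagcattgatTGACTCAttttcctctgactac
*ILV3*, chrX:466322-466358, minus strand: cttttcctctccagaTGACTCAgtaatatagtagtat
*ARG4*, chrVIII:141560-141596, minus strand: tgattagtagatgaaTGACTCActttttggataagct
*ARG3*, chrX:268470-268506, plus strand: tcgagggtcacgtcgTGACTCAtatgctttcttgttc
*HOM2*, for aspartate semialdehyde dehydrogenase, and *ARG4*, for argininosuccinate lyase, rose by 2.09 ± 0.41 and 1.70 ± 0.31. In sulfur metabolism 4 of 22 genes were called higher and 1 lower, including *MET16* (2.32 ± 0.72) and *SAM1* (2.04 ± 0.66), the latter with overlapping groups.

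The genes of the hypoxic cell wall and sterol uptake had 8 of 19 members called higher and 1 lower, with a median of 0.88. *TIR4*, for a cell wall mannoprotein of anaerobic growth, gave 14.4, 11 and 12.9 CPM in WT and 88.9 to 193 CPM in the mutants (3.58 ± 0.31, adjusted p = 9.11e-05). *DAN1*, of the same kind, gave 2.30 to 4.57 CPM in WT and 10.6 to 105 CPM in the mutants (3.93 ± 0.90, adjusted p = 0.0116), a call lost without any 1 of the 3 WT libraries (adjusted p from 0.0519 to 0.0576). *TIR1* was called (4.57 ± 1.48, adjusted p = 0.0492) while its groups overlapped, with *snf1*∆ replicates 1 and 2 and JS1416 replicate 1 at 6.42 to 7.78 CPM against the 5.56 to 6.52 CPM of WT. *ANB1*, for the hypoxic form of translation factor eIF5A, rose by 2.75 ± 0.46. Without WT replicate 1 the list had 3 calls.

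**Figure D4:**
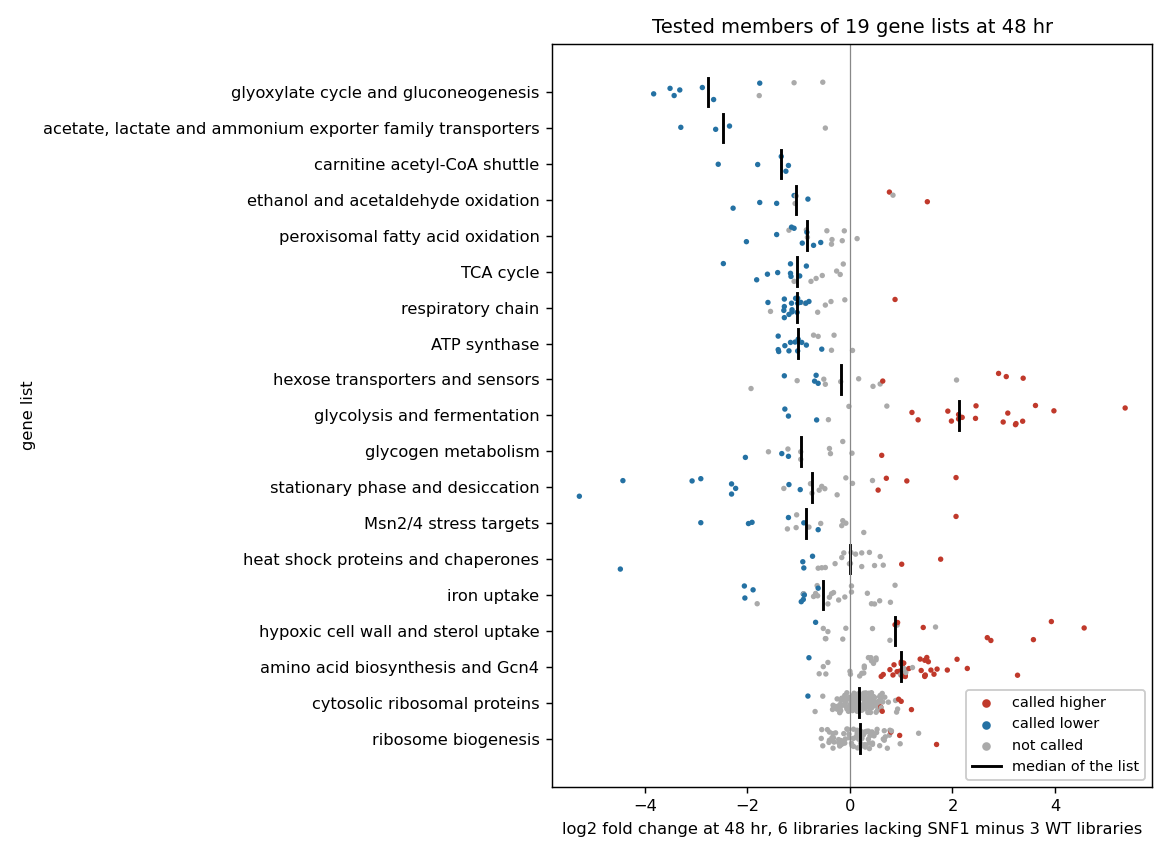
Log2 fold change at 48 hr of the tested members of 19 gene lists (horizontal axis), 1 point per gene and 1 list per line, with called genes in colour and a bar at each median. Glyoxylate and gluconeogenesis genes lie lowest, with a median of -2.77, and glycolysis and fermentation genes highest, with a median of 2.12.

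Several of the largest changes fell outside these groups. *SNM1* (YDR478W, chrIV:1414575-1415171), for a protein of the RNase MRP complex, gave 15.1, 13.7 and 9.49 CPM in WT and 318 to 722 CPM in the mutants (5.38 ± 0.44, adjusted p = 8.65e-05). It is the gene next to *SNF1*, while the neighbour on the other side, YDR476C, was not called (-0.18), and an effect of the replaced neighbour and an effect of the missing kinase on *SNM1* cannot be told apart. *MCH5*, for a riboflavin transporter, gave 46.2 to 62.3 CPM in WT and 437 to 3150 CPM in the mutants (5.14 ± 0.82, adjusted p = 0.00213). *INM1*, for an inositol monophosphatase, gave 9.60 to 14.5 CPM in WT and 56.7 to 344 CPM in the mutants (4.06 ± 0.70, adjusted p = 0.00299).

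*ESF1*, for a factor of ribosomal RNA processing, gave 56.1 to 61.2 CPM in WT and 242 to 1640 CPM in the mutants (3.99 ± 0.86, adjusted p = 0.0086), a call that was lost without WT replicate 3 (adjusted p = 0.0548). *NDJ1*, for a meiotic telomere protein, gave 4.72 to 6.89 CPM in WT and 15.5 to 142 CPM in the mutants (3.83 ± 0.83, adjusted p = 0.00883), and its adjusted p was 0.0573 without WT replicate 3. *VEL1*, which responds to zinc, gave 8.60 to 21.5 CPM in WT and 104 to 233 CPM in the mutants (3.59 ± 0.42, adjusted p = 0.000419). Its difference was already 3.58 in log phase, where only *snf1*∆ was compared with WT, and 4.94 at 24 hr. On the lower side, *RGI2*, a gene of respiratory growth, gave 41.6 to 106 CPM in WT and 0.963 to 14.2 CPM in the mutants (-3.39 ± 0.60, adjusted p = 0.00338), and *DPA10* gave 182 to 278 CPM in WT and 3.89 to 72.1 CPM in the mutants (-3.33 ± 0.73, adjusted p = 0.00948). All 28 genes chosen for the size of their change or for their place in the study kept their call without the libraries labelled *snf1*∆ replicate 3 and JS1416 replicate 1.

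Protein synthesis genes were near WT at 48 hr. Of 137 cytosolic ribosomal proteins 5 were called higher and 1 lower, and the median log2 fold change of 0.18 became -0.21 when scaled by library size alone. The largest changes were in *RPP2B* (1.20), for a stalk protein, and *RPL41A* (-0.82). Of 84 ribosome biogenesis genes 3 were called higher and 0 lower, and the median of 0.20 became -0.27 with that scaling. Among 34 translation factors 4 were called higher and 1 lower, including *HEF3* (-2.01), for another form of elongation factor 3.

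Whether the difference between mutants and WT changed between harvests was tested in a fit of all 24 libraries, with 8 groups. From 24 hr to 48 hr the difference rose for 880 of 6616 genes (13.3%) and fell for 895 (13.5%). From log phase, where only *snf1*∆ was compared with WT, it rose for 781 (11.8%) and fell for 764 (11.5%). Such a change of the difference can come from WT, from the mutants or from both. The 24 hr side averaged 3 libraries of *snf1*∆ and 2 of JS1416, and all comparisons of 1 time share the WT libraries of that time. Over all genes the median difference was 0.00 on the log2 scale at 24 hr and -0.04 in log phase.

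In log phase the medians of the 10 lists plotted over time lay between -0.41 and 0.53. Some single genes differed there already, such as *VEL1* (3.58) and *ATG41* (2.36). The glyoxylate and gluconeogenesis list had a median log2 fold change of 0.06 in log phase, -1.67 at 24 hr and -2.77 at 48 hr. For *MDH2* the difference went from -1.46 at 24 hr to -3.43 at 48 hr, a change of -1.98 (adjusted p = 0.000385), and for *SFC1* from 0.02 to -2.66 (change -2.71, adjusted p = 0.00212). *ACS1* moved the other way, from -2.54 to -1.76 (change 0.79, adjusted p = 0.00664). The median of the glycolysis list was 0.19 in log phase, 2.23 at 24 hr and 2.12 at 48 hr.

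The cytosolic ribosomal protein genes had a median log2 fold change of 2.22 at 24 hr and 0.18 at 48 hr, and the difference fell for 128 of 137 of them, against the 13.5% of all genes. For ribosome biogenesis the medians were 1.24 and 0.20, and the difference fell for 49 of 84 genes. *RPL8A*, for a protein of the large subunit, changed by -3.24 ± 0.30 (adjusted p = 3.11e-07). Its WT mean, scaled over all 24 libraries, went from 10.7 CPM at 24 hr to 85.7 CPM at 48 hr. The means of *snf1*∆ (82.5 and 48.1 CPM) and JS1416 (55.6 and 71.2 CPM) moved less. Chaperones went the opposite way, with medians of -1.04 and 0.00 and a rise of the difference for 19 of 22 genes, and *HSP82*, for Hsp90, changed from -2.06 to 0.01 (adjusted p = 5.95e-06). In the respiratory chain the medians were -1.93 and -1.03 and the difference rose for 17 of 23 genes, so that their gap to WT was smaller at 48 hr than at 24 hr. Scaled by library size alone, the difference rose for 254 genes and fell for 1771 between these times.

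**Figure D5:**
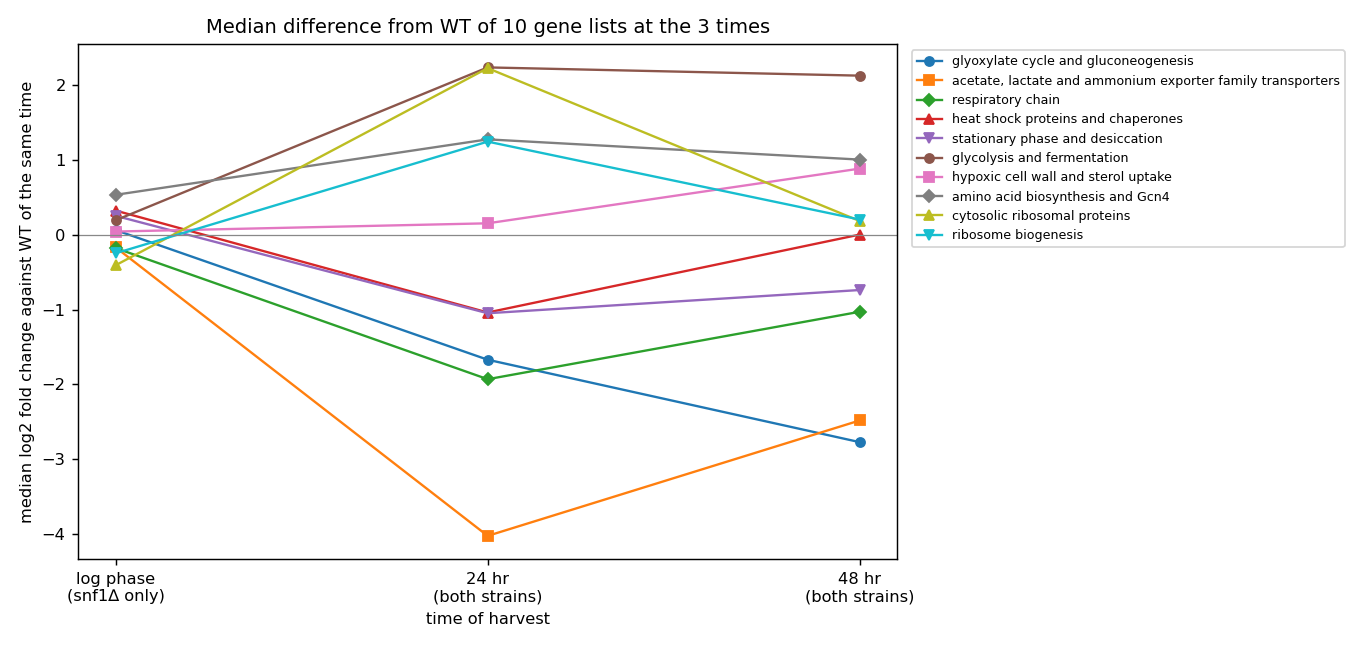
Median log2 fold change against WT of the same time (vertical axis) for 10 gene lists in log phase, at 24 hr and at 48 hr (horizontal axis), 1 line per list. The cytosolic ribosomal proteins stand at 2.22 at 24 hr and 0.18 at 48 hr, and the glycolysis list at 2.23 and 2.12.

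For single genes the difference changed as strongly between harvests. The difference of *PHO89*, for a sodium-phosphate cotransporter, changed by 5.73 ± 1.21 from 24 hr to 48 hr (adjusted p = 0.00144), although its 48 hr levels of 23.9 to 47.3 CPM in WT and 3.21 to 176 CPM in the mutants overlapped. *HXT4* changed by 3.53 (adjusted p = 2.36e-05) and *DAK2* by 3.17 (adjusted p = 3.11e-07), and both were higher than WT in every mutant library at 48 hr. At 24 hr, however, the mutant strains lay on opposite sides of WT for both genes, so their average described neither strain. With scaling over all 24 libraries, mean *HXT4* at 24 hr was 163 CPM in *snf1*∆, 11300 in JS1416 and 1510 in WT. Mean *DAK2* was 11, 501 and 38.3 CPM in the same order. Of the lysine synthesis genes, *LYS9* changed by -3.46 (adjusted p = 4.28e-07) and *LYS12* by -3.18 (adjusted p = 1.85e-08), and at 48 hr neither was called (-0.47 and -0.52). With scaling over all 24 libraries, mean *LYS9* at 24 hr was 797 CPM in *snf1*∆, 104 in JS1416 and 36.9 in WT. Mean *LYS12* was 416, 71.1 and 27.4 CPM in the same order, so the mutant strains were unlike at 24 hr. The WT means at 48 hr were 115 CPM for *LYS9* and 108 CPM for *LYS12*. *RKI1*, for ribose-5-phosphate ketol-isomerase, changed by -3.95 (adjusted p = 4.54e-07). It was called lower at 48 hr, with 34.0 to 50.7 CPM in WT and 3.21 to 16.7 CPM in the mutants (-2.39 ± 0.30, adjusted p = 0.000557). With scaling over all 24 libraries, its WT mean went from 3.15 CPM at 24 hr to 45.5 CPM at 48 hr. The means of *snf1*∆ (11.3 and 6.08 CPM) and JS1416 (7.95 and 11.8 CPM) moved less.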

How the data were processed

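RNA-seq libraries of WT, *snf1*∆ and JS1416 cultures were analysed from the table of raw counts per open reading frame that the authors deposited. Per the methods, poly(A) RNA was sequenced, reads were aligned to sacCer3 with Bowtie2 and counted with bedtools. Versions and any strand setting are not given in the sources used here, so overlapping genes may share reads. Depth ranged from 747098 to 29070805 counts per library, and counts were scaled by TMM in edgeR 4.0.16 (R 4.3.3) after its default expression filter, which left 6409 of 6692 reading frames. The 6 mutant libraries of 48 hr formed 1 group and were compared with 3 WT libraries by the quasi-likelihood F test of edgeR. P-values were adjusted by the Benjamini-Hochberg method and genes called at 0.05. SE is the absolute log2 fold change divided by the square root of F. P-values measure the spread between triplicate cultures and, in the pooled group, also that between strains and between the sets into which the mutant libraries fell. The change of the difference between times was a contrast in a fit of all 24 libraries in 8 groups. The procedure was tested on simulated data. 

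The gene lists and members were chosen with earlier results of these data known. Genes named were *SNF1*, the 12 with the largest fold change in each direction among those called, not overlapping and with a mean log2 CPM of at least 3 (the genes deleted in every strain left out), 5 per direction for each change between times, those the study names with these data, and for each list the 2 called members with the largest change in each direction or members whose role describes it. *SUC2*, *FLO11* and *HXT2*, and genes named as exceptions within a list, were picked after their values were seen. A further gene that met the rule is not reported here and was left out of the lists. Of the identifiers, 6008 matched the RefSeq R64 annotation, from which coordinates and sequences were taken. Its sequence is that of sacCer3. Alternatives covered scaling, filters, DESeq2 1.42.0, the libraries fitted and each library left out.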

Additional observations from a re-analysis of the deposited data

Results flagged for a closer look

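The library of JS1416 replicate 2 held 29070805 counts, while the other 5 mutant libraries of 48 hr held from 747098 to 11187696. Its gap to the nearest library was 0.631 of the range, past the 95% limit of Dixon's criterion for 6 samples. It was 1 of 31 sets of 6 libraries examined to pass, and chance passes about 1 in 20.

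The difference between the mutants and WT changed between harvests for many genes, by edgeR's quasi-likelihood test of the change itself. From 24 hr to 48 hr 880 genes moved up and 895 moved down, and from log phase 781 moved up and 764 down. Between 24 hr and 48 hr the difference moved down for 128 of the cytosolic ribosomal protein genes and for 49 of the ribosome biogenesis genes, and it moved up for 19 chaperone genes and 17 respiratory chain genes. The causes of these shifts were not tested.

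From 24 hr to 48 hr the largest changes up on the log2 scale were those of *PHO89* (5.73, adjusted p = 0.00144), the reading frame YKR075W-A (3.73, adjusted p = 1.51e-07), *HXT4* (3.53, adjusted p = 2.36e-05), *SUC2* (3.22, adjusted p = 0.0392) and *DAK2* (3.17, adjusted p = 3.11e-07). Among the largest changes down were those of *RKI1* (-3.95, adjusted p = 4.54e-07), *LYS9* (-3.46, adjusted p = 4.28e-07), *RPL8A* (-3.24, adjusted p = 3.11e-07) and *LYS12* (-3.18, adjusted p = 1.85e-08). For *SUC2* and *PHO89* the 6 mutant libraries of 48 hr lay on both sides of WT. At 24 hr the means of the mutant strains lay on opposite sides of WT for YKR075W-A, *HXT4*, *SUC2* and *DAK2*. The average taken there described neither strain for these genes.

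From log phase to 48 hr the largest changes up were those of *MCH5* (4.82, adjusted p = 0.000141), *TIR1* (4.41, adjusted p = 0.0215), *HXT4* (4.23, adjusted p = 1.22e-05), *ESF1* (4.11, adjusted p = 0.00109) and *ENO2* (3.93, adjusted p = 5.02e-05). The largest changes down were those of *SPG1* (-5.54, adjusted p = 9.68e-06), *SSA3* (-4.62, adjusted p = 2.22e-08), YMR175W-A (-4.53, adjusted p = 0.000136), *SIP18* (-4.11, adjusted p = 5.39e-05) and *ICL1* (-3.83, adjusted p = 4.18e-05). Only the *snf1*∆ libraries were compared with WT in log phase. For *ENO2* the WT mean, scaled over all 24 libraries, went from 14500 CPM in log phase to 1120 CPM at 48 hr. In *snf1*∆ it was 15000 CPM in log phase and 21300 CPM at 48 hr, and in JS1416 it was 14100 CPM at 48 hr, as labelled.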

How the results depend on the processing

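The 1384 calls at 48 hr became 2281 with library size alone (311 higher, 1970 lower), 2703 with all 24 libraries in 8 groups (1342 and 1361), 2699 in 9 groups (1327 and 1372), 896 without the libraries labelled *snf1*∆ replicate 3 and JS1416 replicate 1 (484 and 412), 559 with JS1416 alone (314 and 245), 602 at an adjusted p under 0.01 (301 and 301) and 729 with at least 2-fold (412 and 317). Leaving out 1 library gave 591 to 1598 calls, 295 to 841 higher and 296 to 778 lower, fewest without WT replicate 3 and most without JS1416 replicate 2 or 3. The calls shared with the main comparison had the same sign in every alternative. These fits reuse libraries of the main comparison, so the signs could hardly differ. Of the main calls 39.9% were kept with JS1416 alone and 42.4% without WT replicate 3.

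For the change from 24 hr to 48 hr, the counts up and down were 254 and 1771 with library size alone, 436 and 568 (1004 in all) at an adjusted p under 0.01, and 1408 and 1516 (2924) with *snf1*∆ alone at 24 hr, and 558 were up with at least 10 counts in every library. Leaving out 1 library gave 1277 to 2139 calls, 579 to 1122 up, fewest without WT replicate 2 of 48 hr, and 698 to 1038 down. For the change from log phase they were 257 and 2142 (2399) with library size alone and 389 and 408 (797) at an adjusted p under 0.01, and leaving out 1 library gave 1135 to 1999 calls, 555 to 1054 up and 573 to 945 down. The causes were not tested beyond the stricter thresholds and smaller sets themselves.

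Deviations from the mean of the labelled group gave r from -0.56 to 0.68 over 9 same-numbered pairs. Between the mutant strains, pairs of unlike number gave r from -0.83 to 0.66. Because the mutant sets cross their labels, these values cannot show whether same-numbered libraries deviate together. With the replicate number as a block 1237 genes were called at 48 hr (613 and 624), 1790 for the change from 24 hr (890 and 900) and 1535 for that from log phase (762 and 773). For the 28 genes chosen for the size of their change or for their place in the study, no value reversed. Of their values 7 lost the call, each without 1 WT library: *DAN1* without any of the 3 and *SPG4*, *ADH4*, *ESF1* and *NDJ1* without WT replicate 3. This covers only those 28 genes, and other members of lists lost calls in some fits, as the list counts above show. The limits are 3 WT libraries, a shallowest mutant library of 747098 counts, and mutant libraries that fall in sets that cross their labels.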

Other observations

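For the lists below, the shares over all genes were 10.9% called higher and 10.7% called lower, and nothing particular to a list follows from a count near these. Of 14 genes that respond to zinc through Zap1, 5 were called higher and 4 lower, with *ADH4* (5.37) and *VEL1* (3.59) highest and *IZH4* (-1.63) and *INO1* (-1.20) lowest. In iron uptake 8 of 28 genes were called lower. *ARN2*, for a siderophore transporter, gave 335 to 470 CPM in WT and 74.5 to 119 CPM in the mutants (-2.06 ± 0.21), and *FRE2*, for a ferric reductase, changed by -2.05. At 24 hr their log2 fold changes were -0.02 and 0.10, and the differences changed by -2.04 and -2.13 up to 48 hr (adjusted p = 1.82e-06 and 4.27e-06). Of 19 phosphate starvation genes 4 were called higher, including *PHM8* (2.41) and *PHM6* (1.52). In nitrogen use 7 of 30 genes were called lower and 4 higher, with the glutamate dehydrogenase genes *GDH3* (-1.48) and *GDH2* (-1.44) among the former and the GABA permease gene *UGA4* (1.44) and the ammonium permease gene *MEP3* (1.36) among the latter.

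Of the genes that act in NAD metabolism, *URH1*, for a nucleoside hydrolase, gave 15.5 to 19.5 CPM in WT and 74.5 to 234 CPM in the mutants (3.03 ± 0.47, adjusted p = 0.0019), and *BNA1*, of NAD synthesis from tryptophan, changed by 2.43. Of 16 sirtuin and salvage genes 2 were called higher and 2 lower, close to the shares over all genes, and of 6 genes of de novo synthesis 1 was called. *SIR2* was not called (0.50). In the Ras and protein kinase A list 6 of 18 genes were called lower, including *IRA2* (-1.31), for a negative regulator of Ras, and *TPK3* (1.19), for a catalytic subunit, was the 1 called higher. In autophagy 8 of 34 genes were called lower and 2 higher, with *ATG36*, for the receptor of pexophagy, at -2.33 and *ATG41* at 2.31. Of the vacuolar proteases and inhibitors 4 of 14 were called lower, with *PAI3* (-1.75), for an inhibitor of proteinase A, lowest, and of the proteasome 5 of 32 were called lower, with *RPN3* (-0.76) lowest. Among cyclins and cell cycle inhibitors *CLN3* (-1.43) and *SIC1* (-1.01) were 2 of 4 called lower. In ergosterol synthesis 5 of 26 genes were called higher, *ERG2* (1.64) and *MVD1* (1.25) most, and *HTB2* (1.17) was the 1 of 10 histone genes called, a share like that over all genes. Of 9 flocculins and their activators 3 flocculin genes were called lower, *FLO10* (-1.12) and *FLO5* (-1.08) most, and *FLO8* (0.74), for an activator, was called higher.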
